A study of Mus musculus with 6 samples.

Results

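Dgkz, Tec and Nfatc3 are 3 genes that act at successive steps behind the T cell receptor. They were taken by symbol from a deposited table of transcripts, in which they hold 5 of 1037 listed transcripts and are 3 of the 847 genes that could be matched. The table compares primary CD8+ T cells from the spleen of wildtype mice, cultured in complete RPMI medium with serum, after 2 h with daunorubicin (DNR) or with its solvent dimethyl sulfoxide (DMSO). There were 3 samples per group. Daunorubicin is an anthracycline that intercalates into DNA and blocks topoisomerase II. The mouse strain, age and sex, the drug's dose and any stimulation of the T cell receptor are not stated in the labels. The labels call the samples biological replicates without saying whether they came from separate mice, so the p-values measure the spread between these samples.

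Binding of antigen to the T cell receptor activates a cascade of tyrosine kinases that ends at phospholipase C gamma. Tec gives its name to the kinase family that phosphorylates this phospholipase. The enzyme splits a membrane lipid into diacylglycerol, which recruits protein kinase C theta and the Ras activator RasGRP, and an inositol phosphate that releases calcium. Dgkz encodes diacylglycerol kinase zeta, which converts diacylglycerol to phosphatidic acid and so acts as a brake. Calcium activates the phosphatase calcineurin, which sends NFAT proteins, among them the product of Nfatc3, to the nucleus.

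Most values below are FPKM, fragments counted for a transcript and scaled by its length and by sequencing depth, so levels of different transcripts can be set side by side. Changes are DNR minus DMSO means on the log2(FPKM + 1) scale of the table, which understates changes of low transcripts. A transcript was tested if at least 3 of the 6 samples reached 1 FPKM, and passed at an adjusted p under 0.05 (limma, Benjamini-Hochberg over all tested transcripts). Of the 388 tested transcripts, 387 passed, or 99.7%, and the same share had groups that did not overlap. The rows thus appear to have been picked because they differ between these samples. That 3 of the 3 tested transcripts of Dgkz, Tec and Nfatc3 passed is the background rate and shows nothing about these genes. Size, direction and the pattern among transcripts are described instead. Depth is unknown, because FPKM keep no read totals. Samples of 1 group correlated at 0.989 to 0.993 over the tested transcripts, and samples of different groups at 0.897 to 0.907. As deposited, 43.2% of all calls were higher and 56.8% lower in DNR. Aligning the samples on their median over the tested transcripts (median alignment) moves DNR up by 0.18 on the log2 scale and makes the split 61.2% and 38.8%. No library-wide scaling could be made from this table.

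The Tec transcript on which the results turn, NM_001113460, is 1 of 4 curated Tec transcripts in RefSeq. Tec lies on the minus strand of chromosome 5 (GRCm38.p6, 72755718 to 72868654). In GENCODE M21 the listed transcript has 19 exons, of which the ninth, at chr5:72779421-72779486, is absent from NM_001113461 and NM_013689. This coding exon has 66 bases, the length of 22 codons, and covers codons 223 to 245 in part or whole. It lies in the region of the SH3 domain, a module that binds proline-rich partners. It is printed because it separates the listed transcript from unlisted curated ones, with the exon in capitals between 20 bases of each neighbouring exon (GENCODE transcript, sense strand).
Tec exon 9: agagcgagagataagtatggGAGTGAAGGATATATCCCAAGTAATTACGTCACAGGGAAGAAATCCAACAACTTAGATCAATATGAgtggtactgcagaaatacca
The other curated transcript, NM_001113464, has this exon but lacks the 87-base noncoding exon 2 at chr5:72825044-72825130. The table gives values per transcript and not per exon, and the 3 other curated Tec transcripts are not among its rows. Whether use of this exon changed therefore cannot be read from it.

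Tec and Nfatc3, the genes whose curated transcripts were both lower in DNR, are shown with the 250 bases before an annotated start of each. The bases (RefSeq, GRCm38.p6) read 5′ to 3′ on the gene's strand, and an annotated start need not be the outer end of the gene. Capitals mark the GC box GGGCGG on either strand. The first lies on the minus strand at chr5:72868449-72868698, and the listed Tec transcript begins 4 bases from that start. The second lies on the plus strand at chr8:106059340-106059589, and the listed Nfatc3 transcript begins 43 bases from that start.
Tec: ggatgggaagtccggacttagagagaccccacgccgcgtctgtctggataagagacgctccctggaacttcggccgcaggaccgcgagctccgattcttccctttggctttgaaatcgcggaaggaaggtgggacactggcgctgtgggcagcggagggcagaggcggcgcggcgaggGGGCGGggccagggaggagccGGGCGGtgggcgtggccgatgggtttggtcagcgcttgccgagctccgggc
Nfatc3: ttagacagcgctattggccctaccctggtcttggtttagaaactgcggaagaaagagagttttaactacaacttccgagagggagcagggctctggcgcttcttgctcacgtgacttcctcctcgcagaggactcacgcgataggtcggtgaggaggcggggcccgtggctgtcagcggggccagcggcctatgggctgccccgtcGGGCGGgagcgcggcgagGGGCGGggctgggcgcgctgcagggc
Each window holds 2 GC boxes, which 32.7% of all 32851 windows of this length hold at least once. Their GC content is 68.4% and 65.2%, against a median of 52.4% over all windows. Neither holds the NFAT core GGAAA (55.6% of all windows do), the AP-1 letters TGANTCA (6.75%), the CRE letters TGACGTCA (1.55%), the ETS letters CCGGAAG (6.91%) or a TATAAA (12.4%), searched on both strands. The Nfatc3 window holds 1 E-box CACGTG, found in 6.02% of windows, and 1 CCAAT, found in 33.8%. The window of the other annotated Nfatc3 start, at chr8:106058568-106058817, holds no GC box and 1 GGAAA at 49.6% GC. For Dgkz, the window at chr2:91963564-91963813 holds 3 GC boxes at 77.6% GC, and the one at chr2:91950349-91950598 holds 1 GC box, 2 CCAAT and 1 GGAAA at 62.4% GC. A match of letters is a description and not a binding site.

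Tec showed the larger fall of the curated pair. NM_001113460 measured 24.77, 24.29 and 23.23 FPKM in controls given DMSO, against 13.24, 12.51 and 17.44 FPKM with DNR. The groups did not overlap, and the third DNR sample lay closest to the controls. The mean went from 24.1 ± 0.79 to 14.4 ± 2.66 FPKM (SD, n = 3), a ratio of 0.60 (log2 change of -0.72, SE 0.12; limma, adjusted p = 0.00203). By size it ranked 66 among all 220 transcripts that fell (median change -0.45), 40 among the 194 of these above 0 in every sample, and 8 among the 110 transcripts that fell and had a mean of at least 10 FPKM, whose median change was -0.30. The fall held under median alignment, at -0.53 (limma, adjusted p = 0.00178).

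A predicted Tec transcript, XM_006503847, was listed at 3.85 FPKM in the second DNR sample and at 0 in the other 5 samples. It was not tested. The second DNR sample is also the one with the lowest NM_001113460. Added together, the listed Tec transcripts gave 24.77, 24.29 and 23.23 FPKM with DMSO, against 13.24, 16.36 and 17.44 FPKM with DNR. This sum fell by 34.9%, with a log2 change of -0.60 (SE 0.10; limma on gene sums, adjusted p = 0.00315). Of the 350 gene sums tested, 317 passed (90.6%), 180 of them lower (51.4%), and 89.7% had groups that did not overlap, as did 3 of the 3 sums here. The other 8 of 10 RefSeq transcripts of Tec have no row in the table.

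Dgkz showed the opposite sign, but its listed transcripts were all predicted, and each was listed at 0 throughout a group. XM_030246478 was listed at 0 in each of the 3 controls, while DNR gave 5.34, 2.60 and 3.37 FPKM. It met the filter through the DNR samples alone, so that it had to differ, and its call is not evidence of a change. No fold change is given against a group listed at 0, where a 0 can be a failed estimate. The reverse case was XM_006498538, listed at 2.42 FPKM in the second DMSO sample and at 0 in the other 5, which was not tested.

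The sum of both Dgkz transcripts was 0, 2.42 and 0 FPKM with DMSO, against 5.34, 2.60 and 3.37 FPKM with DNR. The groups were separated by the small gap between 2.42 and 2.60, and the DNR samples alone would have carried the sum through the filter. Its log2 change was 1.62 ± 0.51 (SE; limma on gene sums, adjusted p = 0.0193) with a pseudocount of 1 and 3.66 with a pseudocount of 0.1. The call was lost without DMSO sample 1, DMSO sample 3, DNR sample 1 or DNR sample 3 (limma, adjusted p = 0.0613, 0.0681, 0.0573 and 0.0594). Without DMSO sample 2 the change was 2.21 (limma, adjusted p = 0.00442). The controls left in that fit were all at 0, so it had to differ and its call is not evidence of a change. RefSeq has 24 Dgkz transcripts on chromosome 2 (91932822 to 91976443, minus strand), of which the 2 curated ones and 20 predicted ones have no row here. The level of the whole gene is therefore not known from these data.

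Among the listed transcripts of the 3 genes, that of Nfatc3 was the most abundant, and its change was the smallest of those tested. This transcript, NM_010901, of a gene on chromosome 8 (106058818 to 106130537), measured 51.40, 49.45 and 53.89 FPKM with DMSO, against 44.32, 43.39 and 41.44 FPKM with DNR. Every DNR value lay below every DMSO value. The mean fell by 16.5%, from 51.6 ± 2.23 to 43.1 ± 1.47 FPKM (SD, n = 3; log2 change of -0.26, SE 0.05; limma, adjusted p = 0.00297). This is close to the median change of all tested transcripts, -0.22. Under median alignment the change was -0.07 and the call was lost (limma, adjusted p = 0.338). With quantile normalization the change was -0.19 and passed (limma, adjusted p = 0.00358), so the call depends on the scaling chosen. The transcript has 10 exons and 3228 coding bases in GENCODE M21, and the other 3 RefSeq transcripts of Nfatc3 have no row.

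**Figure D1:**
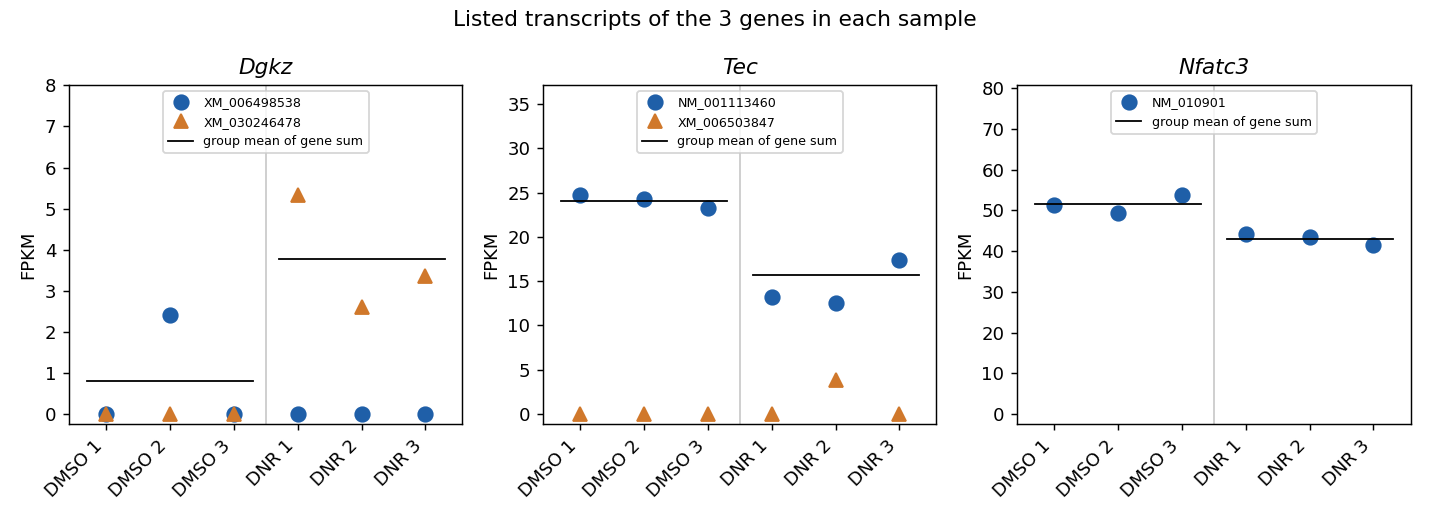
FPKM (vertical axis, from 0, a different range in each panel) of every listed transcript of Dgkz, Tec and Nfatc3 in the 3 DMSO and 3 DNR samples; lines mark the group mean of the gene's summed transcripts. Tec drops from between 23.23 and 24.77 to between 12.51 and 17.44 FPKM for NM_001113460, while XM_030246478 of Dgkz is listed at 0 in the 3 DMSO samples and XM_006498538 in 5 of 6 samples.

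The order of levels in the DMSO samples was Nfatc3 at 51.6 ± 2.23, Tec at 24.1 ± 0.79 and Dgkz at 0.807 ± 1.40 FPKM as sums of listed transcripts (SD, n = 3). In DNR it was 43.1 ± 1.47, 15.7 ± 2.18 and 3.77 ± 1.41 FPKM. No pair of these sums overlapped in any group, so their order was the same in all 6 samples. It need not be the order of the whole genes, since most RefSeq transcripts of each have no row. The ratio of Tec NM_001113460 to Nfatc3 NM_010901 within a sample does not depend on scaling between samples. It was 0.482, 0.491 and 0.431 with DMSO, against 0.299, 0.288 and 0.421 with DNR. The groups did not overlap, but the third DNR sample, at 0.421, lay close to the lowest control, at 0.431. The log2 ratio differed by -0.50 (two-sided exact permutation test, p = 0.1, n = 3 per group, the smallest p that 3 against 3 can give). This comparison was chosen after the values were seen.

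**Figure D2:**
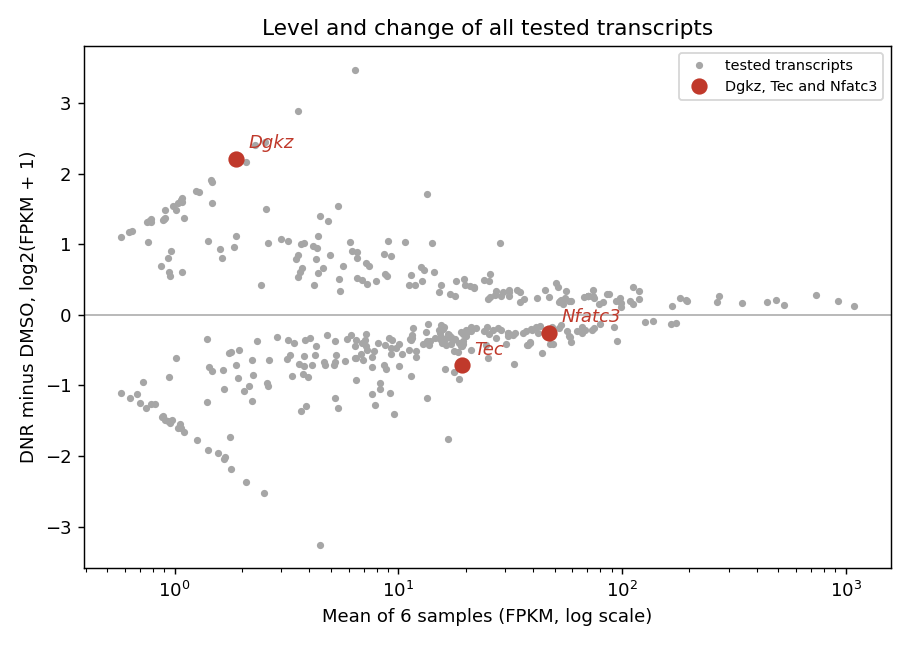
Mean FPKM of the 6 samples (horizontal, log scale) against the DNR minus DMSO change on the log2(FPKM + 1) scale (vertical) for the 388 tested transcripts, with Dgkz, Tec and Nfatc3 in red. Tec, at -0.72, lies near the lower edge for its level, Nfatc3, at -0.26, lies among the others, and Dgkz lies on the edge formed by transcripts listed at 0 in DMSO.

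Few genes of a list drawn up for T cell receptor signalling were in the table, and more of their tested transcripts fell than rose. This list was chosen for the report and need not hold every gene of the pathway, so the counts hold for it alone. Of its 203 genes, 21 had a transcript in the table and 14 a tested one. With a pair of identical Egr2 entries counted once, 4 of 15 tested transcripts rose and 11 fell, beside 43.0% and 56.7% over the table. The 4 include Dgkz, whose transcript met the filter through the DNR samples alone and could only count as higher. The median change was -0.26, or -0.33 for the 12 transcripts without Dgkz, Tec and Nfatc3, against -0.22 over all 388. Without these 3 genes, 3 rose and 9 fell. Under median alignment, 4 passed as higher, again with Dgkz, and 3 as lower (Tec, Inpp5d and Gsk3b), beside 61.2% and 38.8% of all calls. The other 8 kept a negative change, from -0.26 to -0.03, and did not pass. None of the 13 receptor and coreceptor genes, 21 adaptors or 12 genes for ubiquitin ligases and other brakes was among the matched genes, so a change of the pathway as a whole cannot be read from the table.

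Among the proximal kinases and their regulators, both tested transcripts fell. Syk, a kinase related to ZAP-70, measured 73.98, 68.59 and 74.35 FPKM with DMSO, against 61.41, 58.97 and 60.80 FPKM with DNR. Its log2 change of -0.26 ± 0.04 (SE; limma, adjusted p = 0.00203) is the size of that of Nfatc3. Pag1, an adaptor that brings the inhibitory kinase Csk to the membrane, measured 18.69, 16.64 and 18.52 FPKM, against 14.85, 12.57 and 12.77 FPKM, a change of -0.40 ± 0.08 (SE; limma, adjusted p = 0.00462). Neither passed under median alignment (limma, adjusted p = 0.237 and 0.0703). No other gene listed for the kinase family of Tec was matched in the table.

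Of the diacylglycerol kinases, Dgkh and Dgkq were listed beside Dgkz, each with 1 predicted transcript that was not tested. Dgkh was listed at 0 in the controls, and DNR gave 0.19, 0.05 and 0.22 FPKM. Dgkq was listed at 5.64 FPKM in the third DNR sample and at 0 in the other 5. Rasgrp2, of a family of nucleotide exchange factors bound by diacylglycerol or calcium, was at 2.70 FPKM in the same DNR sample and at 0 elsewhere. All 5 listed transcripts of this arm were thus listed at 0 throughout at least 1 group. In the Ras and MAP kinase arm, Spred2, which inhibits the activation of Raf, fell from 9.35 ± 0.60 to 6.87 ± 0.36 FPKM. Map3k1, a kinase upstream of JNK, fell from 79.4 ± 5.11 to 68.2 ± 4.07 FPKM (SD, n = 3; limma, adjusted p = 0.00574 and 0.0101). Neither passed under median alignment (limma, adjusted p = 0.0967 and 0.723).

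In the calcium and NFAT arm, the other NFAT gene in the table, listed with a predicted transcript, moved against Nfatc3 in the values as deposited. Nfat5, whose product responds to osmotic stress and is not controlled by calcineurin, measured 4.98, 4.78 and 4.42 FPKM with DMSO, against 5.64, 6.17 and 6.94 FPKM with DNR. It rose by 0.34 ± 0.11 (SE; limma, adjusted p = 0.0203), a call lost without DMSO sample 3 or DNR sample 3 (limma, adjusted p = 0.0658 and 0.0559). Under median alignment Nfat5 rose by 0.52 (limma, adjusted p = 0.00341), while Nfatc3, at -0.07, did not pass. Gsk3b, a kinase that phosphorylates NFAT for export from the nucleus, fell in 1 predicted transcript from 1.98, 3.50 and 3.95 FPKM to 0.53, 0.89 and 1.45 FPKM. A second one was listed at 0 in the controls, with 0, 1.80 and 0.71 FPKM after DNR, and the gene sum did not pass (limma on gene sums, log2 change -0.63 ± 0.37 SE, adjusted p = 0.142). Itpr1, the gene of a calcium channel opened by inositol trisphosphate, was at 1.98, 1.15 and 0.42 FPKM with DMSO, against 0, 0 and 0.03 FPKM with DNR, and was not tested. Of the NFAT and AP-1 target genes, Egr2 fell by 0.26 and Nr4a2 rose by 0.33 on the log2 scale (limma, adjusted p = 0.0062 and 0.00366). Egr2 was not called under median alignment (limma, adjusted p = 0.426).

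In the remaining arms, Inpp5d, which encodes the lipid phosphatase SHIP1, measured 7.38, 9.81 and 7.06 FPKM with DMSO, against 4.74, 5.43 and 4.56 FPKM with DNR. Its change of -0.61 ± 0.14 (SE; limma, adjusted p = 0.00574) was the nearest in size to that of Tec. The listed transcript of Inpp5d was predicted, as were those of Pag1 and Map3k1. Traf6, a ubiquitin ligase of the NF-kB arm, fell from 8.42 ± 0.51 to 5.92 ± 0.77 FPKM (SD, n = 3; limma, adjusted p = 0.00682). Dock2, an activator of Rac in lymphocytes, fell in NM_033374 from 22.2 ± 2.14 to 16.1 ± 2.25 FPKM and rose in XM_017314862 from 24.3 ± 2.53 to 29.8 ± 0.59 FPKM (limma, adjusted p = 0.00648 and 0.00811). Its sum, 49.05, 48.66 and 41.94 FPKM with DMSO, against 44.57, 47.75 and 45.31 FPKM with DNR, did not pass (adjusted p = 0.81, limma on gene sums). Traf6 and Dock2 NM_033374 passed neither under median alignment nor with quantile normalization (limma, adjusted p = 0.0959 and 0.0761, then 0.0691 and 0.0696). Transcripts of Pik3cg, Ptpn2 and Pdpk1 were listed below the filter: Pik3cg was at 0.61, 0.83 and 0.67 FPKM with DMSO and listed at 0 with DNR.

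**Figure D3:**
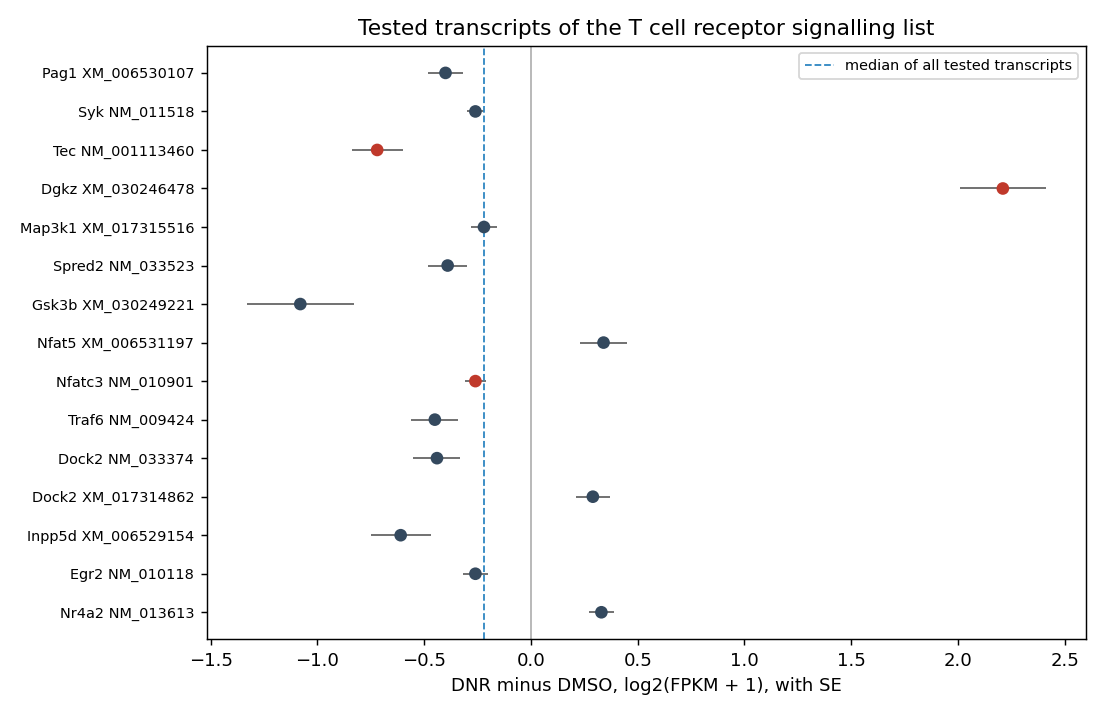
DNR minus DMSO change on the log2(FPKM + 1) scale with its SE for the 15 tested transcripts of the T cell receptor signalling list, in order of role, with Dgkz, Tec and Nfatc3 in red; the dashed line marks the median of all tested transcripts, -0.22. Of the 15 transcripts, 11 lie below 0 and 4 above, with the fitted value of Dgkz, listed at 0 in DMSO, standing apart at the right.

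The transcripts most like each of the 3 tested ones over the 6 samples were found by Pearson correlation of log2(FPKM + 1), among 376 transcripts of other genes. These correlations share the libraries and the difference between groups, and are given as a description. For Tec NM_001113460 they were the golgin gene Golga4 (r = 0.978), Ttc17 (0.977) and the sorting nexin gene Snx9 (0.976), with 22 transcripts at 0.95 or more. Snx9, the most abundant of them, measured 40.99, 39.37 and 39.72 FPKM with DMSO, against 33.49, 33.71 and 35.25 FPKM with DNR, with the third DNR sample again nearest the controls. For Nfatc3 they were Micall1 (0.994), Afg3l1 (0.991) and the transcription factor gene Sp4 (0.989), with 50 at 0.95 or more. For Dgkz XM_030246478 they were Fcna (0.998), Mindy3 (0.995) and Ppfia1 (0.994), with 39 at 0.95 or more. These 3 were at or near 0 in DMSO as well, Fcna at 0 in all 3 samples and the others at no more than 0.12 FPKM.

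The labelled cell type could not be checked by its own markers, since none of 9 marker genes of CD8+ T cells was among the matched genes. Tec and Syk are also expressed in myeloid and B cells. Of 13 marker genes of monocytes and macrophages, 4 were listed, Csf1r, Il1b, Tgfbi and Cd300lf. Their summed level was 128.3 to 137.9 FPKM in DMSO and 156.0 to 177.0 FPKM in DNR. RNA of these markers was thus present in every sample, with Csf1r at 58.45 to 79.11 FPKM, above Nfatc3 NM_010901 in each. All 4 markers rose, Csf1r from 61.5 ± 2.64 to 73.3 ± 5.12 FPKM (SD, n = 3; limma, adjusted p = 0.00574), while Tec, Nfatc3 and Syk fell. Over the table, 43.0% of tested transcripts passed as higher and 56.7% as lower. The other 9 markers of this list were not matched in rows that appear picked for a difference, so their direction is not known. Of 8 B cell genes, Spib and Ebf1 were listed, with a summed level of 0.0 to 2.3 FPKM in DMSO and 1.9 to 6.0 FPKM in DNR. In the dendritic cell list 1 of 6 genes was listed, Itgax, with a summed level of 1.0 to 1.2 FPKM in DMSO and 1.1 to 1.5 FPKM in DNR. Of 5 neutrophil genes, Csf3r was listed, at 1.43 FPKM in the second DMSO sample alone. No gene of the lists for CD4 T cells, natural killer cells, or erythroid cells and platelets was matched. The part of these cells in the levels of Tec, Nfatc3 and Dgkz was not tested. In bulk samples, fewer cells of a type and less RNA per cell cannot be told apart.

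**Figure D4:**
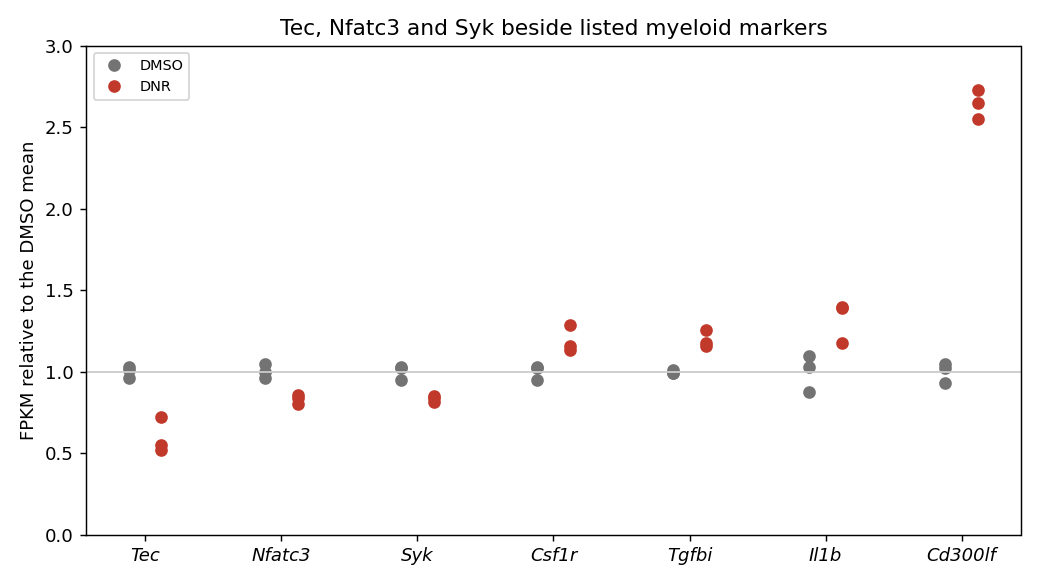
FPKM of each sample divided by the mean of the 3 DMSO samples (vertical axis, from 0) for Tec, Nfatc3 and Syk and for the 4 listed monocyte and macrophage markers, with DMSO in grey and DNR in red. The DNR samples lie below the DMSO samples for the first 3 genes and above them for Csf1r, Tgfbi, Il1b and Cd300lf.

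Gene span, the length of the gene on the chromosome, moved with direction over the table. Of the called transcripts of genes under 10 kb, 12.7% fell, and of those from 10 to 40 kb, 44.3%. The share was 74.3% of 74 transcripts from 40 to 80 kb and 81.0% of 116 above 80 kb. Tec spans 112.9 kb and Nfatc3 71.7 kb, so both fell in classes where most called transcripts fell. Dgkz spans 43.6 kb, and its tested transcript is 1 of 19 that rose against 55 that fell between 40 and 80 kb. That transcript met the filter through the DNR samples alone, so it could only count as higher. The part of gene span in these changes was not tested.

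**Figure D5:**
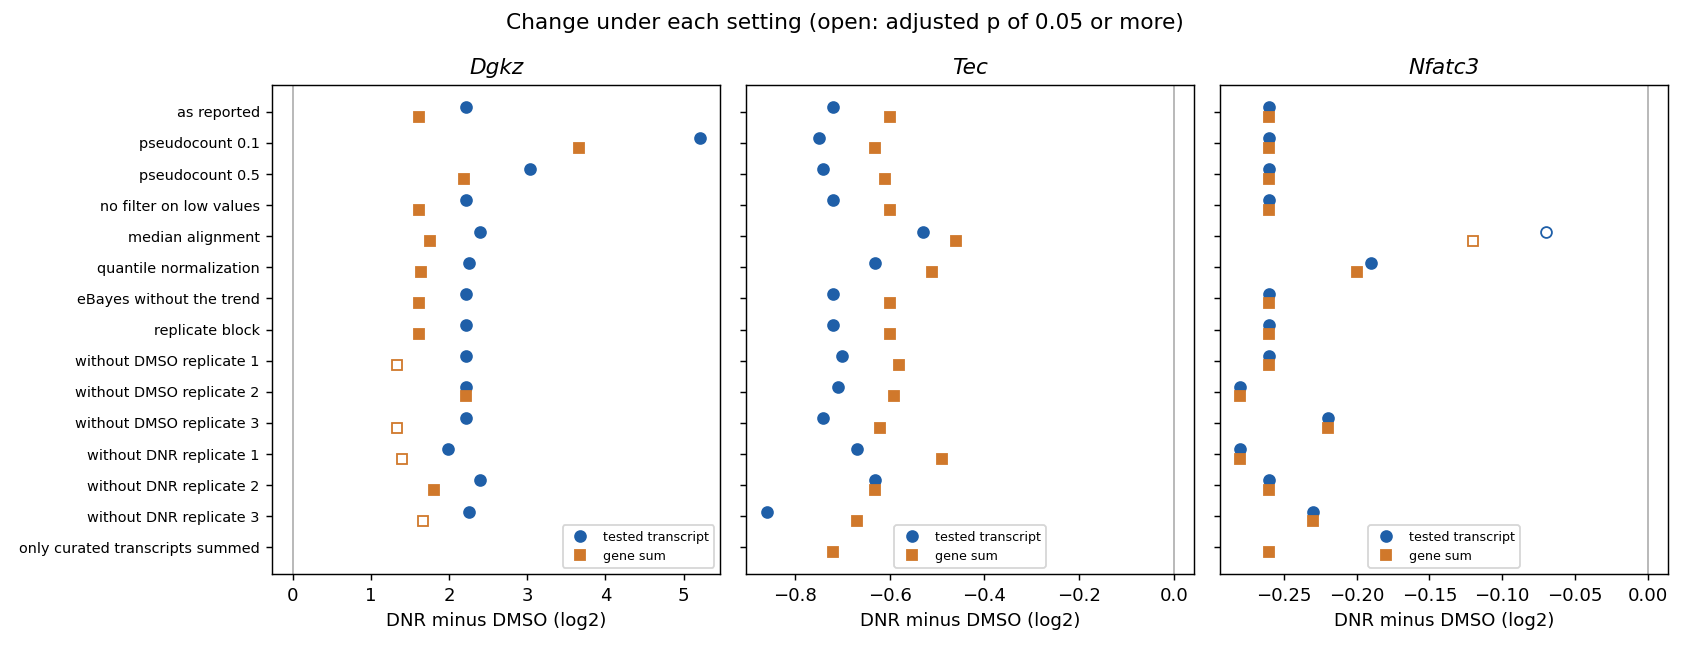
DNR minus DMSO change (horizontal, log2 scale, a different range in each panel) of the tested transcript and of the summed listed transcripts of Dgkz, Tec and Nfatc3 under each way of processing the values; open symbols mark an adjusted p of 0.05 or more. Tec passed under each of them, and 376 to 383 of the 388 tested transcripts passed when a sample was left out. Nfatc3 missed the threshold under median alignment, and the Dgkz sum did not pass when any of 4 single samples was left out. The fitted values of the Dgkz transcript, listed at 0 in DMSO, depend on the pseudocount.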

How the data were processed

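RNA-seq of 6 samples, 3 treated with DMSO and 3 with DNR for 2 h, used total RNA and a SMARTER mRNA library kit, per the labels' protocols. The authors deposited 1 table of log2(FPKM + 1) for 1037 transcripts. The log2 scale was read from the values: 2 raised to each value, minus 1, had 2 decimals in 100% of cells (within 1e-06 FPKM). The genome builds were GRCm38 and mm10, per the submitters' processing notes; no aligner, quantification tool or rule of entry to the table is named in the sources used here.

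Value columns with the code O match the DMSO descriptions by name, and those with D were taken as DNR because each DMSO sample had its own column; every direction rests on this. Accessions were matched without version to RefSeq genes of GRCm38.p6 (1013 of 1037). Transcripts with 1 FPKM in at least 3 samples were fitted with limma 3.58.1 in R 4.3.3 (treatment alone, eBayes with trend, two-sided, threshold 0.05), and gene sums, with identical entries once, likewise. The fit was run on simulated data in which changes were given to transcripts drawn at random. The deposited rows appear picked for a difference, so that run gives no error rate for the calls here. The alternatives were other pseudocounts, no filter, 2 scalings, no trend, a replicate block, leaving out each sample, and curated transcripts only. The genes and lists were chosen with earlier results of these data known. The text names every listed transcript of the 3 genes, every listed gene of the signalling list with a tested transcript, listed marker genes, and the 3 transcripts most like each tested one.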

Additional observations from a re-analysis of the deposited data

How the results depend on the processing

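Tec kept its direction and its call under every alternative run, as transcript NM_001113460 (log2 change -0.86 to -0.63 when a sample was left out) and as gene sum (-0.67 to -0.49). Keeping a call was the background here. Of the 388 tested transcripts, 376 to 383 passed when a sample was left out, 320 with quantile normalization and 273 under median alignment. The sum of curated transcripts gave no value for Dgkz, which has none listed. The Dgkz transcript XM_030246478 met the filter through the DNR samples alone, so its calls are not counted here; its fitted change depended on the pseudocount (2.21 with 1, 3.04 with 0.5 and 5.21 with 0.1). The Dgkz gene sum ranged from 1.33 to 2.21 when a sample was left out and passed in 2 of these 6 fits. They include the fit without DMSO sample 2, whose remaining controls were at 0, so that call is not evidence of a change. Under median alignment, Nfatc3 changed by -0.07 as a transcript and by -0.12 as a gene sum and did not pass (limma, adjusted p = 0.338 and 0.144), 106 instead of 220 transcripts and 94 instead of 180 gene sums were called lower, and 3 instead of 11 transcripts of the signalling list were called lower, the other 8 keeping their sign. This scaling makes the sample medians over the tested transcripts equal by construction. No result reversed. When a sample was left out, the same tested transcripts were fitted.

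Same-numbered DMSO and DNR samples did not deviate together (correlations -0.055, 0.046 and 0.043 over the tested transcripts). Of 6 samples, 2 correlated best with their own number. With 3 samples per group, this cannot show whether same-numbered samples share an origin. With the replicate block, 385 transcripts and 314 gene sums passed, and Tec and Nfatc3 kept their calls (limma, adjusted p = 0.00582 and 0.00903 for the transcripts). Their changes, -0.72 and -0.26, cannot move under a block in this balanced design. Depth is unknown, so values near 0 carry no counting interval.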
